A study of Mus musculus with 8 samples.

Results

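AMPA receptors are ligand-gated channels that open when glutamate binds and carry most fast excitatory signals between neurons. Here 9 genes were followed: the pore-forming subunits Gria1, Gria2, Gria3 and Gria4, the transmembrane AMPA receptor regulatory proteins (TARPs) Cacng2, Cacng3 and Cacng8, and the cornichons Cnih2 and Cnih3. They were picked by gene symbol as a receptor family, by a rule that uses no measured value, although earlier results of these data were known when it was set. All 9 were found among 19505 genes named on the array, each through 1 probe set, and all 9 were among the 14628 genes bright enough to be tested. Hippocampal RNA came from 8 mice killed after a Morris water maze, a spatial learning task, with 1 array for each mouse. The labels record impaired memory for 4 of them and intact memory for the other 4. Both groups were 18 to 20 months old and were of the line B6.Cg-Tg(APPswe)E1-2Dbo/J, which carries an APPswe transgene. No mouse without the transgene was included in the comparison, and neither the promoter of the transgene nor the maze scores behind the 2 labels are given in the sources used here.

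A receptor is assembled from several GluA subunits around a shared pore, and GluA1 with GluA2 is a common combination in pyramidal neurons of the rodent hippocampus. GluA2 is edited in its RNA at a site in the pore, and receptors that hold the edited form pass little calcium. TARPs bind the receptor, bring it to the cell surface and synapse and slow its closing, and the TARP encoded by Cacng8 is abundant in the rodent hippocampus. Cornichons help receptors leave the endoplasmic reticulum and also slow their closing.

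RefSeq promoter windows were found for 7 of the 9 genes, all but Gria1 and Gria3. The 4 below are shown because Gria2 had the largest difference between the groups, Cnih3 varied most between mice, and Gria4 and Cnih2 ran opposite to each other over the mice. Each is the 250 bases before the annotated start in GRCm38.p6, written 5′ to 3′ on the strand of the gene. Gria2 lies at chr3:80802836-80803085 on the minus strand, Gria4 at chr9:4796235-4796484 on the minus strand, Cnih2 at chr19:5098522-5098771 on the minus strand and Cnih3 at chr1:181352378-181352627 on the plus strand. Capitals mark GC boxes, the letters GGGCGG on either strand.
Gria2: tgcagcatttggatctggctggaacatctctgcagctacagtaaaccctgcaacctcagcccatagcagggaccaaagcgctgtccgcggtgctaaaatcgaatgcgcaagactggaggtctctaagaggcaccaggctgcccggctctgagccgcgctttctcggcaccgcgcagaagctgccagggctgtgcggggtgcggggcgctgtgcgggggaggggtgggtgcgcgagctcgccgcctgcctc
Cnih3: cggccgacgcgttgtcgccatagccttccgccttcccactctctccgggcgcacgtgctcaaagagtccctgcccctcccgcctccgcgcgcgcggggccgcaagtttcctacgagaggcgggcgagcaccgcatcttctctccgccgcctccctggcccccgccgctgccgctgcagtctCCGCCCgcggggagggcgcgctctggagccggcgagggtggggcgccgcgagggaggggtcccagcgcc
Gria4: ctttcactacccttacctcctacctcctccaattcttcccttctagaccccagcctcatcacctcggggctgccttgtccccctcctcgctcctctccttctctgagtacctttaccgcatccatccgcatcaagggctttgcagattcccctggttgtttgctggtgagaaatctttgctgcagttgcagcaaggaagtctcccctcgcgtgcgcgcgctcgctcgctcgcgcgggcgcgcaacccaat
Cnih2: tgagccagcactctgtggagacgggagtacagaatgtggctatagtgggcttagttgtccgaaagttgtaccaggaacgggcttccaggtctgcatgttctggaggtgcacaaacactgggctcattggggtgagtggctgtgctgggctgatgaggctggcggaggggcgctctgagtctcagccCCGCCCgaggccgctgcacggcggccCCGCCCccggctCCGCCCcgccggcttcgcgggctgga

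The Cnih2 window held 3 GC boxes, whose first bases lay 64, 38 and 26 bases before the start, and the Cnih3 window held 1, at 69 bases before it. The windows of Gria2, Gria4, Cacng2, Cacng3 and Cacng8 held 0. Of 32851 RefSeq windows of the same length, 32.7% held at least 1 GC box. The cyclic AMP response element TGACGTCA and its core TGACG, which lies within it, and the TATA box TATAAA, each searched on both strands, occurred in none of the 7 windows, against 1.55%, 17.8% and 12.4% of all windows. The content of G and C was 76.0% in Cnih3, 65.6% in Cnih2, 64.8% in Gria2 and 58.8% in Gria4, with a median of 52.4% over all windows. These counts describe letters in 1 window of each gene and show neither binding nor promoter use.

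Expression is given as log2 intensity after robust multi-array averaging, so that a difference of 1 stands for 2 times the signal. On the 14628 genes tested, the arrays had medians of 7.75 to 7.79 and correlated with each other at 0.98 to 0.99. Each of the 9 genes had a mean above 7.92, the 95th percentile of 5222 negative-control probe sets, as did 46.0% of all genes tested. Neuronal markers were present, with all 6 neuron markers above that level. Of the hippocampal markers tested, 4 of 4 for CA1 pyramidal neurons, 4 of 7 for dentate granule cells and 1 of 6 for CA3 pyramidal neurons were above it. Thalamus markers stood apart in intact mouse 3, where the 10 markers lay on average 1.56 below their mean over the 8 mice (a score of -1.56), against scores of -0.22 to 0.53 in the other mice. Choroid plexus markers were lowest in impaired mouse 3 and intact mouse 3, as Ttr shows at 9.79 and 10.6, against at least 12.3 in the others.

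The comparison asked whether AMPA receptor transcripts differ with memory status among mice of 1 transgenic strain and age. None of the 9 genes differed between the groups beyond the spread between mice. Means were lower in the impaired group for 7 genes and higher for 2, with log2 differences from -0.15 to 0.08, and quantile normalization turned 1 of the 7, Cacng3, to 0.01 higher. Limma called 0 of the 9 at an adjusted p of 0.05, where it called 0.0% of all genes tested, and 0 at an unadjusted p of 0.05, against 4.68% of all genes. The 2 groups of 4 mice overlapped for all 9 genes, while 2.58% of all genes had no overlap. The median difference was -0.05 over the 9 genes and -0.01 over all genes, of which 52.9% had lower values in the impaired group.

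The 95% intervals of the 9 differences lay between -0.36 and 0.32, that is between 1.28-fold lower and 1.25-fold higher in the impaired group. They are not adjusted for the number of genes. Standard errors ran from 0.09 to 0.14, with a median of 0.10 over all genes tested. In bulk tissue, fewer cells of a type and less RNA per cell cannot be told apart.

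**Figure D1:**
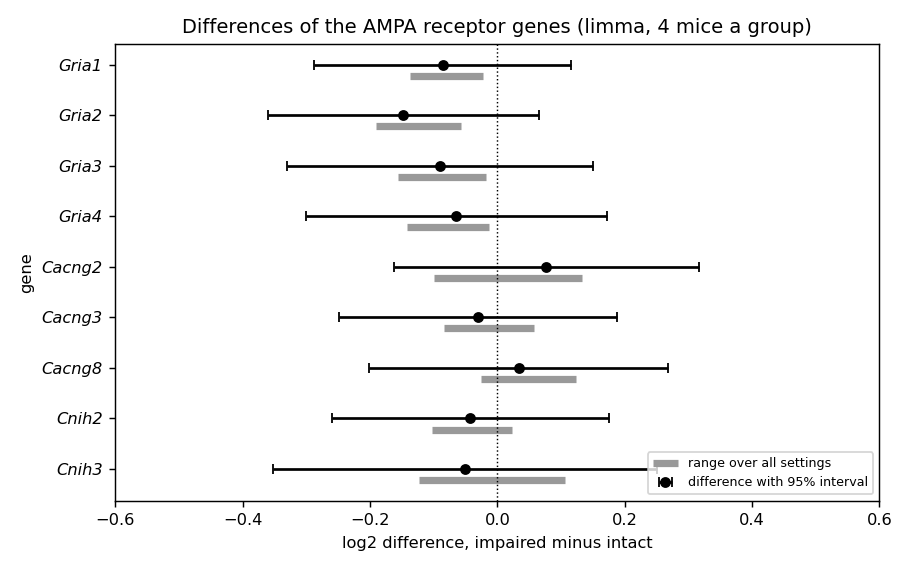
The plot gives the log2 difference, impaired minus intact, of each of the 9 genes on the x axis, with black points for the limma estimate from 4 mice a group, whiskers for its 95% interval and grey bars for its range over all settings tried. Every interval spans 0, and Gria2 has the largest estimate at -0.15, while the grey bars of Cacng2, Cacng3, Cacng8, Cnih2 and Cnih3 cross 0.

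Among the pore-forming subunits, Gria2, whose edited protein keeps calcium out of the channel, had the largest difference of the 9 genes. Its values were 10.84, 11.02, 10.70 and 10.99 in impaired mice 1 to 4, against 11.14, 10.98, 11.12 and 10.91 in intact mice 1 to 4. Impaired mice 1 and 3 lay below all intact mice, and impaired mice 2 and 4 lay among them. The means were 10.89 ± 0.15 in the impaired group and 11.04 ± 0.11 in the intact group (SD, n = 4 each), a 1.11-fold lower signal. The log2 difference was -0.15 ± 0.10 (standard error), with a 95% interval from -0.36 to 0.07 and an adjusted p of 0.961 by limma. Of all genes tested, 15.6% had a smaller unadjusted p than Gria2.

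Gria1 encodes the subunit whose insertion at synapses accompanies long-term potentiation in rodent CA1. It stood at 12.08, 12.24, 12.15 and 12.36 in impaired mice 1 to 4, against 12.42, 12.17, 12.35 and 12.23 in intact mice 1 to 4. Impaired mice 1 and 3 were below every intact mouse, as for Gria2, while impaired mouse 4 was above 3 of the 4 intact mice. The difference was -0.09 ± 0.09 (standard error), with a 95% interval from -0.29 to 0.12 and an adjusted p of 0.961 by limma.

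Gria3, an X-linked gene for a subunit that pairs with GluA2, had values of 10.87, 11.05, 10.70 and 10.88 in impaired mice 1 to 4, against 11.02, 10.89, 11.18 and 10.77 in intact mice 1 to 4. The intact mice spanned nearly the whole range, with only impaired mouse 3 below them. Its difference was -0.09 ± 0.11 (standard error), with a 95% interval from -0.33 to 0.15 and an adjusted p of 0.964 by limma.

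Gria4 encodes a subunit that forms fast channels and is found in interneurons of rodents. It gave 8.70, 8.91, 8.67 and 8.55 in impaired mice 1 to 4, against 8.81, 8.93, 8.54 and 8.82 in intact mice 1 to 4. Both groups covered the same range, from a low in impaired mouse 4 and intact mouse 3 to a high in the second mouse of each group. The difference was -0.06 ± 0.11 (standard error), with a 95% interval from -0.30 to 0.17 and an adjusted p of 0.981 by limma. The 4 subunits kept a negative difference in the 14 settings that could move it, but its size was not stable. With 1 mouse left out, Gria1 ran from -0.14 (without impaired mouse 4) to -0.04 (without intact mouse 1) and Gria2 from -0.19 (without impaired mouse 2) to -0.09 (without impaired mouse 3). Gria3 ran from -0.16 (without intact mouse 4) to -0.02 (without intact mouse 3) and Gria4 from -0.14 (without intact mouse 3) to -0.01 (without impaired mouse 4). With the thalamus and plexus scores both in the fit, a choice made after seeing the data, Gria2 was at -0.06.

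The TARPs showed no shared direction. Cacng2, which encodes stargazin, the founding TARP, was 10.68, 10.96, 11.03 and 10.72 in impaired mice 1 to 4, against 10.61, 10.85, 10.68 and 10.94 in intact mice 1 to 4. Impaired mice 2 and 3 were the highest of the 8, and the other impaired mice lay near the lowest intact ones. The difference was 0.08 ± 0.11 (standard error), with a 95% interval from -0.16 to 0.32 and an adjusted p of 0.973 by limma. It was 0.02 without impaired mouse 3, 0.02 without intact mouse 1 and 0.13 without intact mouse 4.

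Cacng3, a TARP of forebrain neurons, was 11.30, 11.26, 11.10 and 11.20 in impaired mice 1 to 4, against 11.32, 11.12, 11.44 and 11.08 in intact mice 1 to 4. The 4 impaired mice fell within the intact range. The difference of -0.03 (standard error 0.10, 95% interval from -0.25 to 0.19, limma adjusted p = 0.992) turned to 0.01 with impaired mouse 3 left out and to 0.04 with intact mouse 3 left out.

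Cacng8, the TARP most typical of the rodent hippocampus, was 9.58, 9.41, 9.58 and 9.54 in impaired mice 1 to 4, against 9.54, 9.34, 9.76 and 9.32 in intact mice 1 to 4. The impaired mice again lay inside the intact range, with an SD of 0.08 in the impaired group and 0.21 in the intact group (n = 4 each). The difference of 0.03 (standard error 0.11, 95% interval from -0.20 to 0.27, limma adjusted p = 0.992) was -0.02 without intact mouse 2 and -0.02 without intact mouse 4.

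Of the cornichons, Cnih2, which acts on AMPA receptors of rodent hippocampal neurons, was 11.14, 11.09, 11.19 and 11.38 in impaired mice 1 to 4, against 11.26, 11.12, 11.43 and 11.15 in intact mice 1 to 4. Its extremes were impaired mouse 2 and intact mouse 3, and the groups overlapped between them. The difference was -0.04 ± 0.10 (standard error), with a 95% interval from -0.26 to 0.17 and an adjusted p of 0.990 by limma, and 0.02 without intact mouse 3.

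Cnih3, its close relative, varied most between mice, over 0.64 on the log2 scale, where the median gene tested spanned 0.45. It was 10.38, 10.51, 9.94 and 10.37 in impaired mice 1 to 4, against 10.44, 10.14, 10.57 and 10.25 in intact mice 1 to 4. Impaired mouse 3 was the lowest of all 8 mice, and the other impaired mice lay among the intact ones. The difference of -0.05 (standard error 0.14, 95% interval from -0.35 to 0.25, limma adjusted p = 0.991) was 0.07 without impaired mouse 3 and 0.02 without intact mouse 3. Gria3 and Cnih3 were the only 2 of the 9 genes whose span over the mice exceeded that of the median gene tested.

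**Figure D2:**
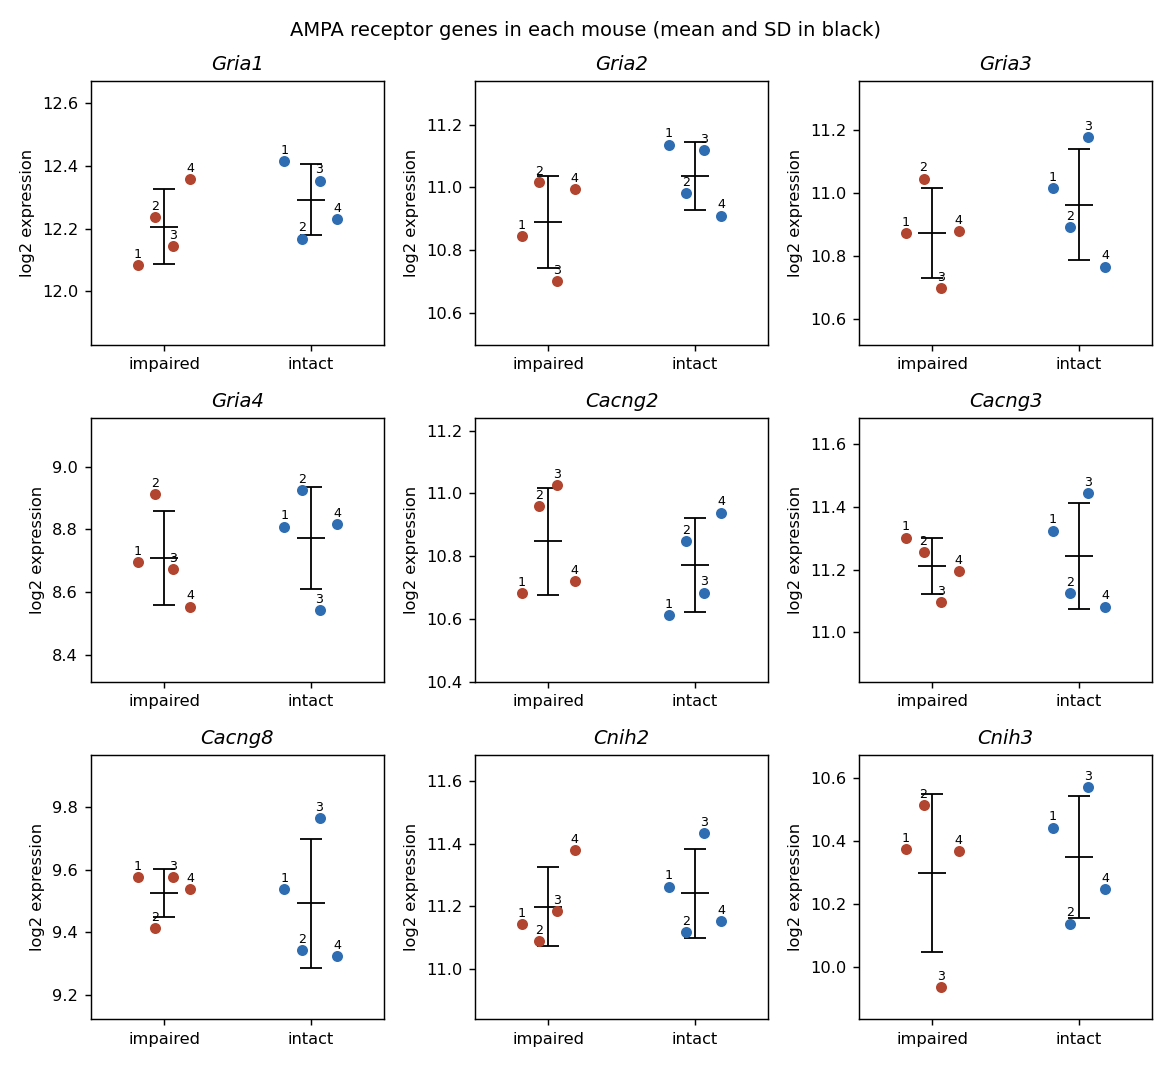
The 9 panels give log2 expression on the y axis for each mouse, numbered within its group, with impaired mice in red and intact mice in blue, and the mean and SD of 4 mice in black. All panels span the same height on the log2 scale, the groups overlap in each, and intact mouse 3 is the highest of the 8 in Gria3, Cacng3, Cacng8, Cnih2 and Cnih3.

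The balance between subunits was described within each mouse as the log2 value of 1 subunit minus that of another, which cancels the brightness of the probe sets when mice are compared. Gria1 minus Gria2 was 1.24, 1.22, 1.44 and 1.36 in impaired mice 1 to 4, against 1.28, 1.19, 1.23 and 1.32 in intact mice 1 to 4. Impaired mice 3 and 4 had the highest values, and impaired mice 1 and 2 lay within the intact range. The means were 1.32 ± 0.11 in the impaired group and 1.26 ± 0.06 in the intact group (SD, n = 4 each), a difference of 0.06 that ran from 0.02 without impaired mouse 3 to 0.09 without impaired mouse 2.

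Gria3 minus Gria2 was 0.03, 0.03, -0.01 and -0.11 in impaired mice 1 to 4, against -0.12, -0.09, 0.06 and -0.14 in intact mice 1 to 4. Here impaired mice 1, 2 and 3 lay above 3 of the 4 intact mice, and intact mouse 3 was the highest of all. The means were -0.02 ± 0.07 in the impaired group and -0.07 ± 0.09 in the intact group (SD, n = 4 each), and the difference of 0.06 ran from 0.03 without intact mouse 4 to 0.10 without intact mouse 3. No test was made of either balance, since both were built from the chosen genes.

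**Figure D3:**
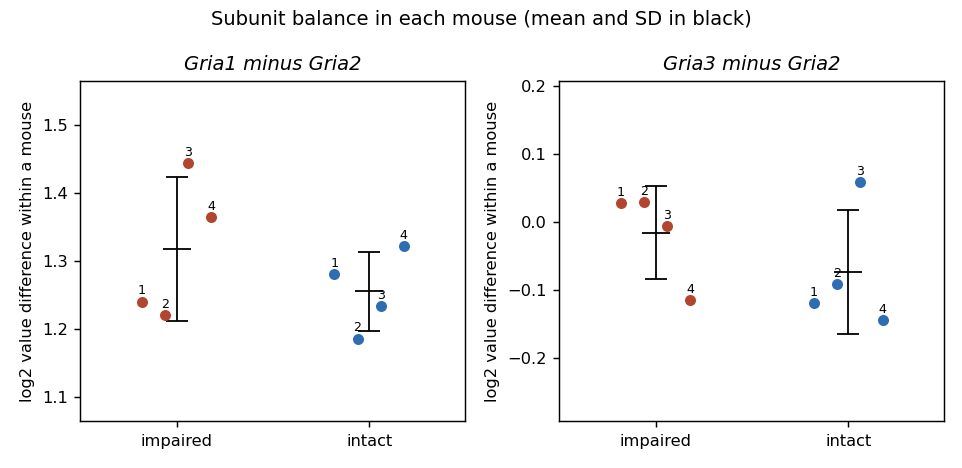
The 2 panels give the difference between the log2 values of 2 subunits within each mouse on the y axis, with impaired mice in red, intact mice in blue and the mean and SD of 4 mice in black. For both balances the impaired mean is 0.06 higher, and the points of the groups overlap.

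High and low values of the 9 genes gathered in a few mice. Intact mouse 3 had the highest value of 5 of the 9 genes and the lowest Gria4, whereas impaired mouse 3 had the lowest Gria2, Gria3 and Cnih3 and the highest Cacng2. Intact mouse 1 was above the mean in 8 of the 9, the exception being Cacng2. The highest value lay in an intact mouse for 8 of the 9 genes, all but Cacng2, and the lowest in an impaired mouse for 5. Intact mouse 3 alone held 5 of those 8 highest values. These counts were not made over all genes tested, so they show no lean of the 9 genes.

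Over the 8 mice, 36 pairs of the 9 genes were correlated, and 5 pairs had an r of at least 0.8 and 2 an r of -0.8 or lower. The closest pair was Gria3 and Cacng3 (r = 0.88, exact permutation p = 0.00504; rho = 0.76, p = 0.0368; n = 8 mice), at 0.71 without impaired mouse 3 and intact mouse 3. Gria3 and Cnih3 reached r = 0.87 (exact permutation p = 0.00466; rho = 0.83, p = 0.0154), at 0.71 without the same mice. Gria2 and Gria3 reached r = 0.86 (exact permutation p = 0.00707; rho = 0.88, p = 0.00724), at 0.83 without impaired mouse 3 and intact mouse 1. Other pairs of a subunit and an auxiliary gene differed widely, with Gria2 and Cnih3 at r = 0.79 and Gria2 and Cacng8 at r = 0.15. Cacng2 had a negative r with Gria1, Gria2 and Gria3, from -0.62 to -0.51.

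Cacng3 and Cnih3 gave r = 0.83 (exact permutation p = 0.0102; rho = 0.86, p = 0.0107), and Gria1 and Gria2 gave r = 0.80 (exact permutation p = 0.0155; rho = 0.88, p = 0.00724). Without the 2 mice farthest from the median they were at 0.86 and 0.72. Gria4 ran opposite to Cnih2 (r = -0.83, exact permutation p = 0.0104; rho = -0.86, p = 0.0107) and to Cacng8 (r = -0.81, exact permutation p = 0.0165; rho = -0.83, p = 0.0154). Without impaired mouse 4 and intact mouse 3, these were at -0.43 and -0.79, so that the first of them rests on those mice.

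All 7 pairs kept their sign within each group of 4 mice. Since they were chosen by their r over these same mice, this is no separate check. None of the 36 pairs passed an adjusted p of 0.05 in these two-sided tests (exact permutation, Benjamini-Hochberg over the pairs, 0.0748 at the lowest for r). The values of a mouse share 1 array and 1 dissection. As a scale, the share of all genes tested that reached an r of at least 0.8 with a given gene of the 9 ran from 1.30% for Gria4 to 3.58% for Gria2. The share at an r of -0.8 or lower ran from 0.95% for Gria4 to 2.46% for Cacng3. These shares include dimmer genes, since 46.0% of all genes tested lay above the negative-control level, as all 9 did.

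**Figure D4:**
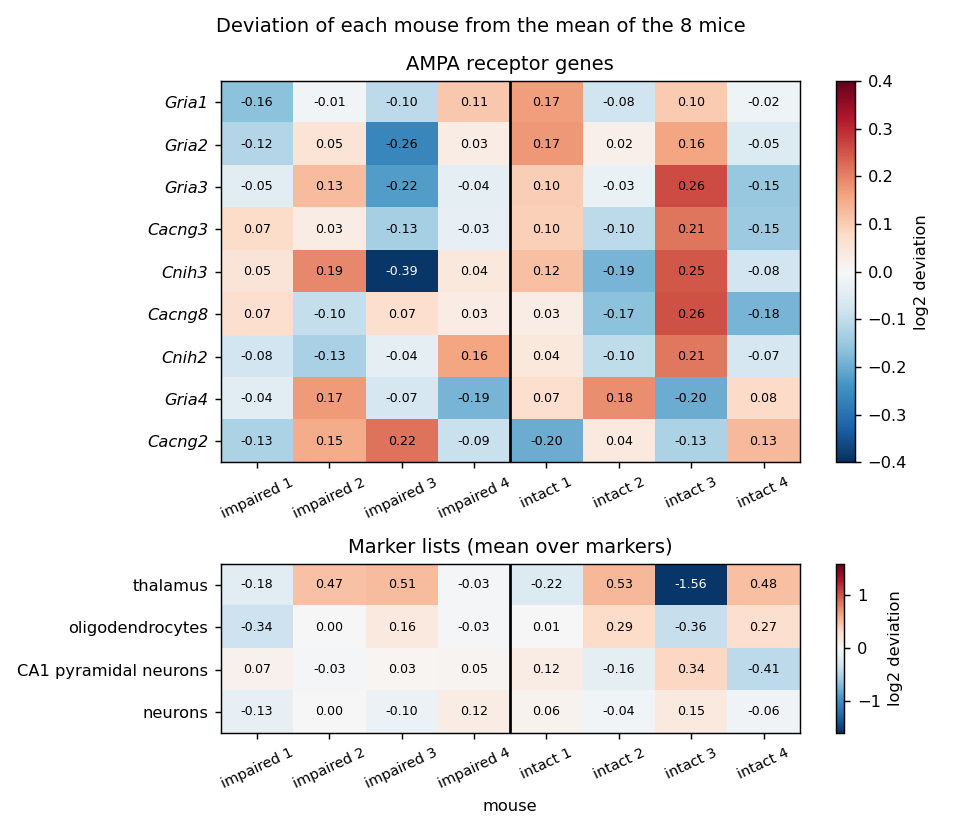
The upper map shows, for each of the 9 genes and 8 mice, the deviation of the log2 value from the mean of the 8 mice, and the lower map the same for marker lists, averaged over their genes and on a wider colour scale. Impaired mice stand left of the black line and intact mice right of it. In intact mouse 3 the thalamus list is at -1.56, Gria3, Cacng3, Cnih3, Cacng8 and Cnih2 are 0.21 to 0.26 above their means, and Gria4 is 0.20 below.

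Each of the 9 genes was also set against 13 lists of cell type and neighbouring tissue markers over the 8 mice, and 0 of the 117 pairs passed an adjusted p of 0.05 in exact permutation tests. The thalamus list, with 10 of 10 markers tested, had mean levels of 8.89 to 9.59 in the impaired group and 7.52 to 9.60 in the intact group. All 10 had higher means in the impaired group, and 0 of 10 passed the test. The direction of the list score rests on intact mouse 3, at -1.56. The other intact scores were -0.22, 0.53 and 0.48, against -0.18, 0.47, 0.51 and -0.03 in impaired mice 1 to 4. Of 11 choroid plexus markers tested, all had lower means in the impaired group and 0 passed, with list levels of 6.57 to 7.80 in the impaired group and 6.56 to 8.50 in the intact group. All 7 oligodendrocyte markers and all 4 striatum markers tested also had lower means in the impaired group, with 0 passing, and the other 9 lists held markers of both directions. Means above the 95th percentile of the negative controls were found for 3 of the 11 plexus and 1 of the 4 striatum markers. For the oligodendrocyte and thalamus lists they were found for 7 of 7 and 8 of 10. Prkcd, a kinase typical of thalamic relay neurons, had 10.43, 11.32, 11.22 and 10.57 in impaired mice 1 to 4, against 10.45, 11.27, 8.94 and 11.13 in intact mice 1 to 4. Tcf7l2, a transcription factor of thalamic neurons, had 11.37, 11.98, 12.17 and 11.70 in impaired mice 1 to 4, against 11.10, 12.12, 9.66 and 12.30 in intact mice 1 to 4. Both were lowest in intact mouse 3 and above the 95th percentile of the negative controls in all 8 mice.

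Cacng3 ran opposite to the thalamus list (r = -0.87, exact permutation p = 0.00384; rho = -0.88, p = 0.00724; n = 8 mice), at -0.69 without intact mice 1 and 3. It was as far opposite to the oligodendrocyte list (r = -0.87, exact permutation p = 0.00466; rho = -0.76, p = 0.0368), at -0.79 without impaired mouse 1 and intact mouse 3. It also had r = -0.82 with astrocytes and 0.83 with the CA1 list (exact permutation p = 0.0138 and 0.009995), so that the relation was not to the thalamus list alone. Cacng8 had r = -0.84 with the thalamus list (exact permutation p = 0.0107; rho = -0.62, p = 0.115) and Cnih2 r = -0.80 (exact permutation p = 0.0130; rho = -0.60, p = 0.132), at -0.64 and -0.50 without intact mice 1 and 3. Cacng2 ran with the thalamus list (r = 0.70, exact permutation p = 0.0286; rho = 0.76, p = 0.0368), at 0.90 without the same mice. Gria3 had r = -0.72 with it (exact permutation p = 0.0373; rho = -0.55, p = 0.171), which rests on those 2 mice, since it was -0.13 without them. The other 4 genes had r from -0.64 for Cnih3 to 0.66 for Gria4 (exact permutation p = 0.0890 and 0.0553). By rank, Cnih3 had rho = -0.83 (exact permutation p = 0.0154) and Gria4 rho = 0.60 (exact permutation p = 0.132).

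Within the hippocampus, Cacng8 followed the 4 tested markers of CA1 pyramidal neurons (r = 0.92, exact permutation p = 0.000546; rho = 0.83, p = 0.0154), at 0.89 without intact mice 3 and 4. Its relation was not to the CA1 list alone. Cacng8 also ran opposite to the oligodendrocyte list (r = -0.81, exact permutation p = 0.01555; rho = -0.81, p = 0.0218). With the striatum list it had r = -0.69 (exact permutation p = 0.0622; rho = -0.93, p = 0.00223). The CA1 list had mean levels of 9.07 to 9.17 in the impaired group and 8.68 to 9.44 in the intact group. Gria1 followed the 6 neuron markers (r = 0.90, exact permutation p = 0.00397; rho = 0.88, p = 0.00724), at 0.93 without impaired mouse 4 and intact mouse 3. That list had mean levels of 12.23 to 12.48 in the impaired group and 12.31 to 12.52 in the intact group. Cnih2, Gria2 and Gria3 also followed it (r = 0.83, 0.80 and 0.72), at 0.36, 0.89 and 0.73 without the same mice, while Gria4 and Cacng2 had r of -0.44 and -0.50. Cnih2 followed the dentate granule cell list (r = 0.83, exact permutation p = 0.00856; rho = 0.93, p = 0.00223), at 0.71 without impaired mice 2 and 4. Gria1 had r = 0.77 with the dentate list and 0.37 with the CA1 list, and Gria4 had r = -0.63 with the dentate list.

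The lowest adjusted p over the 117 pairs was 0.0638, for Cacng8 and the CA1 list, and it was 0.136 for Gria1 and the neurons (exact permutation). With the thalamus score of each array as a covariate, the differences of Cacng3, Cnih2 and Cnih3 were 0.03, 0.01 and 0.02, all above 0, and 4 of the 9 genes in place of 7 had a negative difference. That count was 8 with the choroid plexus score as a covariate and 4 without intact mouse 3. It was 5 with both scores, a choice made after seeing the data. The part of neighbouring tissue in the differences between mice was not tested further.

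For each pore-forming subunit, the 3 genes with the most similar pattern over the 8 mice were picked by Pearson's r from the genes tested. Left out of this choice were the 9 genes themselves, olfactory and vomeronasal receptors and small RNAs. Symbols that start with Gm or LOC and a digit, or that end in Rik, were also left out. Gria1 was closest to Zfp958, Zfp101 and Atp2b3, a plasma membrane calcium pump, with r of 0.98, 0.97 and 0.97. Zfp958 and Zfp101 had means of 7.71 and 6.84, below 7.92, the 95th percentile of the negative controls. Gria2 was closest to Dmtn, an actin-bundling protein, Matr3, a nuclear matrix protein that binds RNA, and Fam155a, a subunit of the sodium leak channel complex, with r of 0.98 in each case. Gria3 was closest to Abca3, a lipid transporter, Ptprg, a receptor phosphatase, and Rab24, a small GTPase, with r of 0.97, 0.96 and 0.96. Gria4 was closest to Olfm3, Hadha, an enzyme of mitochondrial fatty acid oxidation, and Nek7, a kinase, with r of 0.98, 0.97 and 0.96. They are the top of those left among 14627 genes compared over 8 mice, so that the values describe a choice and carry no test. Olfm3, an olfactomedin found in AMPA receptor complexes of the rodent brain, was also on a list of receptor partners, at 8.52, 9.03, 8.49 and 8.31 in impaired mice 1 to 4, against 8.65, 8.98, 8.23 and 8.75 in intact mice 1 to 4. It was high in the second mouse of each group and low in impaired mouse 4 and intact mouse 3, as Gria4 was.

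Further genes of the receptor's life cycle were grouped by role in 6 lists of 48 genes, of which 46 were tested and the others were not analysed here. Limma called 0 of the 46 at an adjusted p of 0.05, and 1 had an unadjusted p under 0.05, which is 2.17% against 4.68% of all genes. The groups did not overlap for 0 of the 46, against 2.58% of all genes. Lower values in the impaired group were found for 26 of the 46, or 56.5%, against 52.9% of all genes. Their median difference was -0.02.

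Of 12 further auxiliary subunits and membrane partners, 0 passed, with 6 higher and 6 lower in the impaired group and a median of 0.01. Shisa6, a transmembrane partner that keeps AMPA receptors from desensitizing, had the smallest p among them. It was 10.50, 10.42, 10.62 and 10.84 in impaired mice 1 to 4, against 10.90, 10.70, 10.99 and 10.66 in intact mice 1 to 4, with impaired mice 1, 2 and 3 below every intact mouse. The difference was -0.22 ± 0.11 (standard error; adjusted p = 0.961 by limma). Cacng5, an atypical TARP, was 7.85, 8.35, 8.61 and 7.97 in impaired mice 1 to 4, against 7.44, 8.24, 7.42 and 8.34 in intact mice 1 to 4. Intact mice 1 and 3 were the lowest, and they were also the lowest in the thalamus list. The difference was 0.33 ± 0.24 (standard error; adjusted p = 0.961 by limma), at 0.15 with the thalamus score in the fit, 0.19 without intact mouse 3 and 0.20 without intact mouse 1 or impaired mouse 3. It was -0.08 with the thalamus and plexus scores both in the fit, an alternative chosen after the values were known.

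Of 6 factors of receptor assembly in the endoplasmic reticulum, 0 passed, and 5 were lower in the impaired group, with differences between -0.05 and 0.00. Porcn and Abhd6, both known as binding partners of GluA subunits, had the smallest p, at -0.04 and -0.05 with adjusted p of 0.986 and 0.987 (limma). Of 11 anchoring and trafficking proteins, 0 passed, with 6 higher and 5 lower. Dlg1, which encodes the scaffold SAP97 that binds the tail of GluA1, was 8.01, 8.53, 8.06 and 8.56 in impaired mice 1 to 4, against 8.89, 8.66, 8.83 and 8.25 in intact mice 1 to 4. All impaired mice were below intact mice 1, 2 and 3, while intact mouse 4 lay between impaired mice. The difference was -0.37 ± 0.17 (standard error), with a 95% interval from -0.74 to 0.00 and an adjusted p of 0.961 by limma. Grip1, a scaffold that binds the tail of GluA2, differed by 0.16 ± 0.12 (standard error; adjusted p = 0.961 by limma), and by 0.07 without impaired mouse 2. Its mean of 6.57 lay below the 95th percentile of the negative controls.

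Of 5 extracellular partners tested, 0 passed, with 2 higher and 3 lower. Olfm1, a secreted olfactomedin, differed by -0.08, and Nptx2, a pentraxin that clusters AMPA receptors on interneurons, by 0.04, with adjusted p of 0.961 and 0.991 (limma). All 3 RNA editing enzymes had higher values in the impaired group, and 0 of them passed. Adarb2, which lacks known editing activity, differed by 0.11, Adarb1, the enzyme that edits the pore site of GluA2, by 0.04, and Adar by 0.04. Adarb1 was 10.52, 11.01, 10.73 and 10.70 in impaired mice 1 to 4, against 10.65, 11.08, 10.24 and 10.82 in intact mice 1 to 4, with intact mouse 3 the lowest of the 8. The arrays do not measure editing itself.

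Of 9 kinases and phosphatases tested, 0 passed, with 2 higher and 7 lower in the impaired group. Ppp3cb, a catalytic subunit of calcineurin, the phosphatase of long-term depression, had the only unadjusted p under 0.05 among the 46 genes. It was 11.18, 11.40, 11.08 and 11.60 in impaired mice 1 to 4, against 11.75, 11.57, 11.69 and 11.49 in intact mice 1 to 4. Impaired mice 1, 2 and 3 lay below all intact mice, and impaired mouse 4 lay among them. The difference was -0.31 ± 0.12 (standard error; unadjusted p = 0.0257, adjusted p = 0.961 by limma). In 8 of the 19 other settings, the replicate block among them, the unadjusted p of Ppp3cb was 0.0504 to 0.226. Ppp1cc, a catalytic subunit of protein phosphatase 1, differed by -0.24 ± 0.13 (standard error; adjusted p = 0.961 by limma). Ppp3ca, the other brain calcineurin subunit on the list, differed by -0.02, a gene named after its value was seen.

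**Figure D5:**
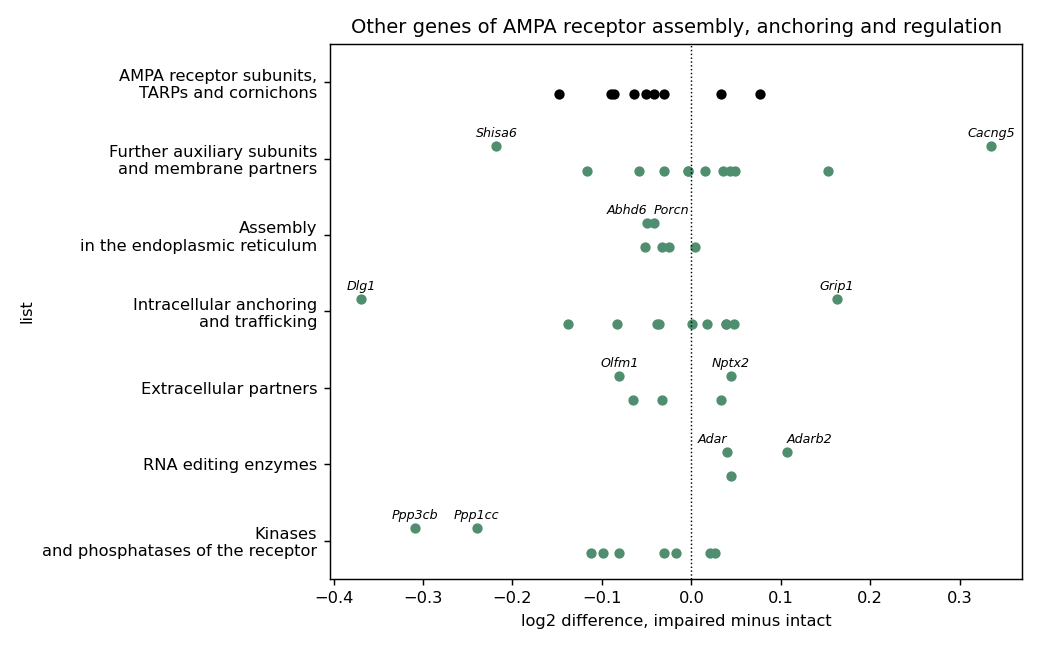
Each point is the log2 difference, impaired minus intact, of 1 gene on the x axis, with the 9 AMPA receptor genes in black in the top row and 46 genes of 6 role lists in green below. Points raised and labelled in a row are the 2 genes with the smallest p of that list, which run from -0.37 for Dlg1 to 0.33 for Cacng5, and 0 of the points passed the test.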

How the data were processed

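Sense cDNA was made from 1 ng of RNA of each hippocampus with a whole-transcript kit, per the labels' protocols. The deposited values are log2 intensities that the authors computed by RMA, per the submitters' processing notes, a method that combines background correction, quantile scaling and probe summary. The sources used here name neither its version nor a genome build. Of 29129 probe sets, 22206 were targets: 19572 had 1 gene symbol, 0 had several and 2634 were unnamed. All 19572 matched RefSeq genes of GRCm38.p6 by Entrez identifier. The brightest probe set stood for each of 55 genes with several. The 25% of genes with the lowest mean, below 5.33, were left out. No arrays held identical values.

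Limma 3.58.1 in R 4.3.3 compared impaired with intact mice, two-sided, and p-values were adjusted by Benjamini-Hochberg across 14628 genes, with a threshold of 0.05. The procedure was tested on simulated data. The number of arrays limits precision, and scan batches were not analysed here. Correlations used exact permutation over 40320 pairings, two-sided. A marker score is, for each mouse, the average deviation over the markers listed. Replicate numbers were not used to pair mice in the main fit. Deviations of same-numbered mice correlated at 0.03, 0.03, -0.05 and -0.10. Differently numbered mice were not compared in this way, so that a pairing cannot be judged from these values.

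The 9 genes and all lists were chosen with earlier results of these data known. Named genes were the 9, the 2 of smallest p in each role list, and Tcf7l2, Prkcd and Ttr. The 3 most similar to each Gria gene, after the exclusions given above, were named too. Adarb1, Olfm3 and Ppp3ca were added after their values were seen. Alternatives changed the filter, normalization, variance model, array weights, covariates, probe set rule and mice.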

Additional observations from a re-analysis of the deposited data

Results flagged for a closer look

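In 46 groups of 4 mice, a lone highest or lowest value stood apart from the others by Dixon's test 2 times, where chance gives about 1 in 20. Porcn was 9.85 in intact mouse 2, against 9.92 to 9.93 in the other intact mice. Grip1 was 6.92 in impaired mouse 2, against 6.55 to 6.59 in the other impaired mice. No value of the 9 AMPA receptor genes stood apart in this way.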

How the results depend on the processing

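Under 19 other settings, 0 of the 9 genes were called, and over all genes limma called 1 with the trended, robust prior and 0 in the others. Adjusted p of the 9 genes ran from 0.789 to 1.00. In 5 of the settings the differences are fixed by construction, since each gene has 1 probe set and the block is balanced. Of the 126 values in the other 14 settings, 16 changed sign, and those of the 4 Gria genes did not. Cacng3 was 0.0123 with quantile normalization. With the thalamus score as a covariate, Cacng3 was 0.0318, Cnih2 0.0132 and Cnih3 0.0241, and with the choroid plexus score Cacng8 was -0.0262. With both scores, a choice made after seeing the data, Cacng2 was -0.10, Cacng3 0.0569, Cnih2 0.0222, Cnih3 0.107, Cacng5 -0.083, Abhd6 0.0304 and Adarb2 -0.107. With 1 mouse left out, Cacng3 ran from -0.0845 to 0.0357, Cacng8 from -0.0229 to 0.124, Cnih2 from -0.102 to 0.0213, Cnih3 from -0.123 to 0.0699, Abhd6 from -0.0943 to 0.0208 and Nptx2 from -0.0516 to 0.105. The correlation of Gria3 with Cacng3 ran from 0.77 to 0.94, the lowest without intact mouse 3. With the replicate block, Gria2 stayed at -0.15 (adjusted p = 0.986 by limma), and 0 genes were called, with 633 genes under an unadjusted p of 0.05 in place of 685. The causes were not tested.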
